A study of Mus musculus with 8 samples.

Results

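Shallow barcodes, the droplets of the single-cell libraries that held fewer than 1500 unique molecular identifiers (UMIs, each counted for 1 captured transcript), are described here in crypt epithelium of WT and ieCtnnb1 KO mice. They were chosen by their own counts, namely fewer than 1500 UMIs, at least 200 genes and at most 30% of UMIs from mitochondrially encoded genes. Barcodes with at least 3 UMIs and at least 0.2% of their UMIs from Ada, Slc28a2, Clca4a and 2010109I03Rik, a villus-tip set, were left out. The rule kept 2487 of 15987 barcodes in the WT matrix and 2523 of 12763 in the KO matrix. Because UMI totals, gene numbers and mitochondrial shares selected these barcodes, they are given as description and carry no test.

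The mice were adult and female, on a C57BL/6 background, per the labels and the study's methods, and untreated. Mice labelled KO lacked both copies of ieCtnnb1, an enhancer upstream of Ctnnb1 (β-catenin, the transcriptional effector of Wnt signalling). Mice labelled WT were reporter animals that carried a LacZ and iCre transgene under the ieCtnnb1 core and the Shh promoter inserted at H11, and are thus a reporter line rather than an unmodified strain. In both genotypes crypts were released with EDTA, and live EpCAM+ (epithelial) cells were sorted and loaded on a droplet instrument. The labels list 4 samples per group, but each group was deposited as 1 pooled matrix in which no barcode could be assigned to an animal. There was thus 1 sample per group, no test was possible, no value could be set against a spread between replicates, and all intervals (95%) cover counting error only.

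In droplet sequencing a barcode can stand for an intact cell, a damaged cell that lost cytoplasm, a nucleus, or an empty droplet that took up RNA released from other cells. Malat1 and Neat1 are long noncoding RNAs that remain in the nucleus, whereas mRNAs of ribosomal proteins are cytoplasmic, and the ratio of such RNAs is in common use as a quality measure. Gm42418, AY036118 and Gm26917 are transcript models on or beside a ribosomal RNA repeat, and reads annotated to them, and in part to Lars2, are widely regarded as derived from ribosomal RNA.

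Of the 4720 WT barcodes under 1500 UMIs, 987 held fewer than 200 genes, 1226 (26.0%) exceeded the mitochondrial limit, 20 had the villus-tip genes and 2487 remained. Of the 5096 KO barcodes under 1500 UMIs the corresponding numbers were 21, 2298 (45.1%), 254 and 2523. Shallow barcodes made up 19.0% (18.3% to 19.7%, exact Clopper-Pearson) of the 13095 kept WT barcodes and 29.1% (28.2% to 30.1%) of the 8658 kept KO barcodes. They contributed 1.83% of the UMIs of kept barcodes in WT and 1.74% in KO. Shallow barcodes were thus a larger share of the KO matrix, and they carried little of the RNA of either matrix.

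The shallow barcodes had a median of 931 UMIs and 349 genes in WT (lowest 516 UMIs) and of 736 UMIs and 333 genes in KO (lowest 565 UMIs). Their median mitochondrial share was 9.06% in WT and 6.43% in KO. The deep barcodes, those with 1500 UMIs or more under the same limits, numbered 10588 in WT and 5881 in KO, with medians of 8545.5 and 14662 UMIs. Summed over barcodes, the shallow sets held 2399139 and 2037652 UMIs and the deep sets 128840195 and 115022009. Between the matrices 57 barcode sequences were shared, among them 11 of the WT and 13 of the KO shallow barcodes, and 0 shallow barcodes lay 1 base from a deep barcode of the same matrix.

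The limit of 1500 UMIs did not fall on a step in the data. The 165 WT barcodes within 100 UMIs below it had 1.67% nuclear lncRNA and 27.2% Paneth products, and the 154 within 100 UMIs above it had 1.68% and 27.6%. In KO the values were 0.956% and 23.8% for the 59 barcodes just inside and 1.26% and 23.5% for the 57 just outside. At the mitochondrial limit, 83 WT barcodes within 2 percentage points below it had 0.943% nuclear lncRNA and 89 just above it had 0.948%, against 1.01% (138 barcodes) and 0.750% (128) in KO. At the gene limit, 168 WT barcodes within 20 genes above it had 0.454% and 93 within 20 genes below it had 0.278%. In KO, 9 barcodes lay just above the gene limit, with 0.384%, and 0 just below it.

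Ctnnb1, the gene that the deleted enhancer regulates, had 369 UMIs in WT and 181 in KO shallow barcodes, or 154 and 88.8 CPM (the count of a gene for every 1000 × 1000 UMIs of the set). The log2 ratio of KO to WT was −0.79 (−1.06 to −0.53), beside −0.36 in deep barcodes. The sign was the same at both depths, but each genotype was 1 library.

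Nuclear lncRNAs took a larger share of the UMIs in shallow than in deep barcodes of both matrices. Malat1 (chr19:5795690-5802672 in GRCm38, minus strand) stood at 16657 CPM in shallow and 2777 CPM in deep WT barcodes, and at 16828 and 1779 CPM in KO. The log2 ratio was 2.58 (2.57 to 2.60) in WT and 3.24 (3.23 to 3.26) in KO. Shallow barcodes of the 2 genotypes, as selected, thus had nearly the same Malat1 share while the deep ones did not. The rule had left out 20 WT and 254 KO shallow barcodes with the villus-tip genes. Malat1 stood at 46606.5 CPM in those of WT and at 69682 CPM in those of KO. Neat1 (chr19:5824708-5845478, minus strand), the scaffold of paraspeckles, stood at 609 against 121 CPM in WT (2.33) and 520 against 62.9 CPM in KO (3.05). Xist, the RNA that coats the inactive X chromosome, was at 1048 against 443 CPM in WT (1.24) and 448 against 336 CPM in KO (0.41). Its excess was thus smaller than that of Malat1 in both matrices. Tsix, its antisense transcript, was at 93.0 against 25.5 CPM in WT (1.87), and the paternally expressed Kcnq1ot1 at 33.4 against 13.4 CPM (1.32). In KO these 2 genes had too few UMIs to be counted, with 2.45 against 1.32 and 5.40 against 2.65 CPM.

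Genes were counted in a comparison when they had at least 50 UMIs in both sets together and an expected 10 or more in the smaller set, and were called at a 2-fold difference. Among all 8444 genes counted in WT, 893 were at least 2-fold higher in shallow barcodes (10.6%) and 113 at least 2-fold lower (1.34%). Among 7766 in KO, 642 were higher (8.27%) and 150 lower (1.93%). The nuclear lncRNA and rRNA-derived lists were chosen with earlier results of these data known, so their counts are description and not support. Beside all genes, 6 of 6 counted nuclear lncRNAs were at least 2-fold higher in WT, with a median log2 ratio of 1.68 where the median of all genes was 0.16. In KO 2 of 3 were, with a median of 3.05 beside −0.08. The list (8 genes in the files) summed to 1.85% of UMIs in shallow and 0.339% in deep WT barcodes, a log2 ratio of 2.45, and to 1.78% and 0.219% in KO, a log2 ratio of 3.03.

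The rRNA-derived RNAs were also enriched. Gm42418 (chr17:39846958-39848788, plus strand) accounted for 76504 CPM in shallow and 7917 CPM in deep WT barcodes, and for 12010 and 835 CPM in KO, log2 ratios of 3.27 and 3.85. AY036118 lies on the opposite strand within it (chr17:39847113-39848035), and how reads were split between them is not given in the sources used here. It stood at 7175 against 547 CPM in WT (3.71) and at 292 against 26.2 CPM in KO (3.47). Gm26917 (chr17:39843013-39846341, plus strand) showed 2.51 in WT and 2.50 in KO. Lars2, the mitochondrial leucyl-tRNA synthetase on chromosome 9, was at 1176 against 137 CPM in WT (3.10) and at 194 against 21.6 CPM in KO (3.17). All 4 counted genes of the list were thus at least 2-fold higher in shallow barcodes of each matrix, and together they took 8.53% against 0.868% of UMIs in WT (log2 3.30) and 1.26% against 0.0905% in KO (log2 3.80).

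Both lists declined in share as barcodes became deeper, without a break at the limit. In kept WT barcodes, villus-tip ones included, nuclear lncRNA stood at 19123 CPM from 500 to under 1000 UMIs, at 13667 from 1500 to under 3000, at 5702 from 6000 to under 12000 and at 1231 from 24000 UMIs on. The same bins of KO barcodes had 23479, 11800, 4136 and 1094 CPM. For rRNA-derived RNA the WT values were 95214, 48309, 13493 and 3344 CPM, and the KO values 14528, 5742, 1589 and 487 CPM.

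**Figure D1:**
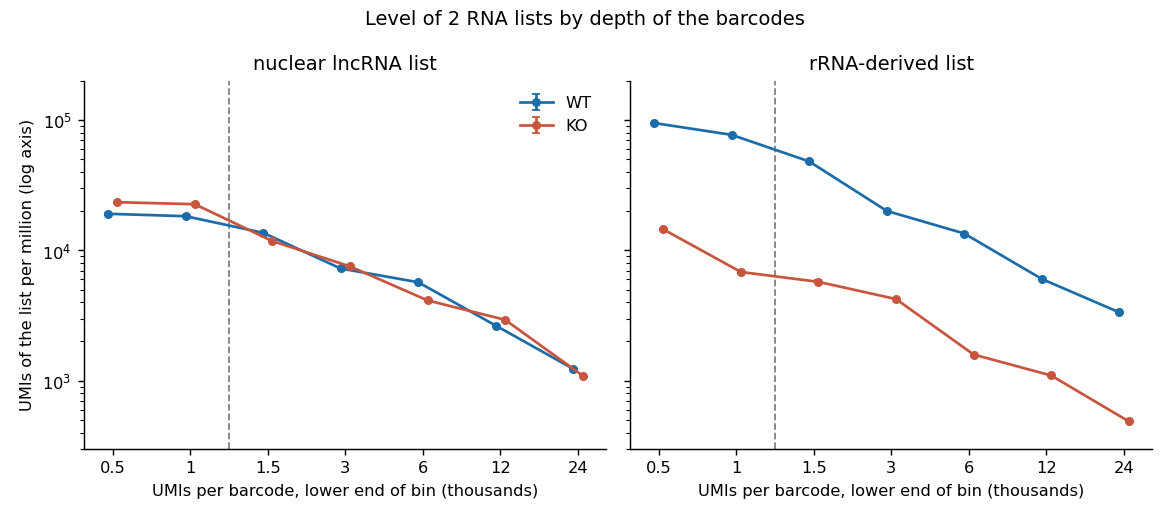
UMIs of the nuclear lncRNA list (left) and the rRNA-derived list (right) in CPM, on a log axis, against the lower end of the UMI bin in units of 1000, for all kept barcodes of WT and KO, with a dashed line at 1500 UMIs and bars for 95% counting intervals, which are smaller than the points. WT nuclear lncRNA falls from 19123 to 1231 and KO from 23479 to 1094 CPM between the bins from 500 and from 24000 UMIs, the 2 matrices running close together, whereas rRNA-derived RNA is lower in KO in every bin.

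Counted in UMIs per barcode rather than as a share, the 2 lists behaved differently. Shallow WT barcodes held a mean of 82.3 rRNA-derived UMIs, barcodes of 1500 to under 3000 UMIs 101.7, and all deep barcodes 105.7. In KO the means were 10.2, 12.2 and 17.7. Even the 994 WT barcodes that fell under 200 genes held 64.0, although they had 1.26 nuclear lncRNA UMIs. The number of rRNA-derived UMIs in WT was therefore similar from the emptiest to the fullest barcodes, within a factor that was small beside the change in total UMIs.

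Nuclear lncRNA rose with depth, from 17.8 UMIs in shallow to 28.8 in barcodes of 1500 to under 3000 UMIs and 41.2 in deep barcodes of WT, and from 14.4 to 25.03 and 42.7 in KO. Malat1 alone rose from 16.1 to 33.8 UMIs in WT and from 13.6 to 34.8 in KO. Ribosomal protein mRNAs rose far more, from 58.2 to 179.6 and 1196 UMIs in WT and from 95.0 to 216.2 and 3098 in KO. Shallow barcodes thus held several Malat1 UMIs each on average, but their count was below, not above, that of a deep barcode. In the shallow barcodes beyond the mitochondrial limit, nuclear lncRNA was lower still, with 9.93 UMIs in WT and 9.30 in KO. The 20 WT and 254 KO shallow barcodes with the villus-tip genes stood higher, with 45.2 and 63.4 Malat1 UMIs per barcode.

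**Figure D2:**
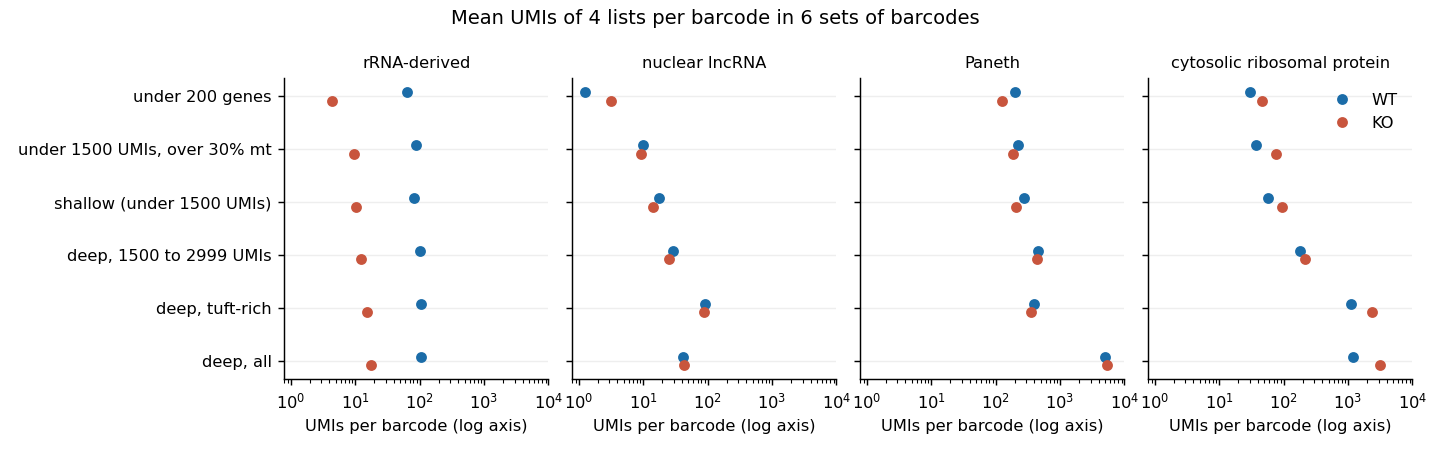
Mean UMIs per barcode (log axis) of the nuclear lncRNA, rRNA-derived, Paneth and cytosolic ribosomal protein lists in 6 sets of barcodes of WT and KO; each point is the mean over the barcodes of a set and no replicate error exists. Between shallow and all deep barcodes the WT mean of ribosomal protein UMIs goes from 58.2 to 1196 and that of rRNA-derived UMIs from 82.3 to 105.7.

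Products of Paneth cells, the antimicrobial secretory cells at the crypt base, were present in every shallow barcode. They made up 28.8% of shallow and 40.8% of deep UMIs in WT and 25.6% and 27.3% in KO, log2 ratios of −0.50 and −0.09. The α-defensin Defa24 stood at 89616 against 131068 CPM in WT (−0.55) and had a ratio of −0.01 in KO, and Lyz1 (lysozyme) showed −0.07 and 0.06. In WT 19 of 20 genes were lower and 4 at least 2-fold lower, with a median of −0.51. In KO 6 of 19 were above 0, with a median of −0.06 and 0 past 2-fold. The direction depended on which deep barcodes were taken, since the deepest ones carried the most Paneth products. Against deep barcodes of 1500 to under 6000 UMIs the log2 ratio became 1.10 in WT and 0.73 in KO.

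In single barcodes the Paneth share was uniform when shallow and split when deep. Each barcode was thinned to 500 UMIs, and 0 barcodes were too shallow for this. The Paneth list then took a median of 29.6% of UMIs in shallow WT barcodes (10th to 90th percentile 19.8% to 39.3%) and 26.4% in KO (18.4% to 33.2%). Deep barcodes had a median of 8.2% in WT, with percentiles of 3.4% and 68.4%, and of 3.4% in KO, with percentiles of 1.6% and 61.4%. A share between 15% and 40% was found in 88.7% of shallow WT (87.4% to 89.9%) and 95.5% of shallow KO barcodes (94.6% to 96.3%), and in 8.05% and 7.62% of deep ones. Of deep barcodes, 53.4% in WT and 70.9% in KO had under 10%, and 33.0% and 18.2% had 40% or more, as did 8.85% of shallow WT and 0.476% of shallow KO barcodes.

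**Figure D3:**
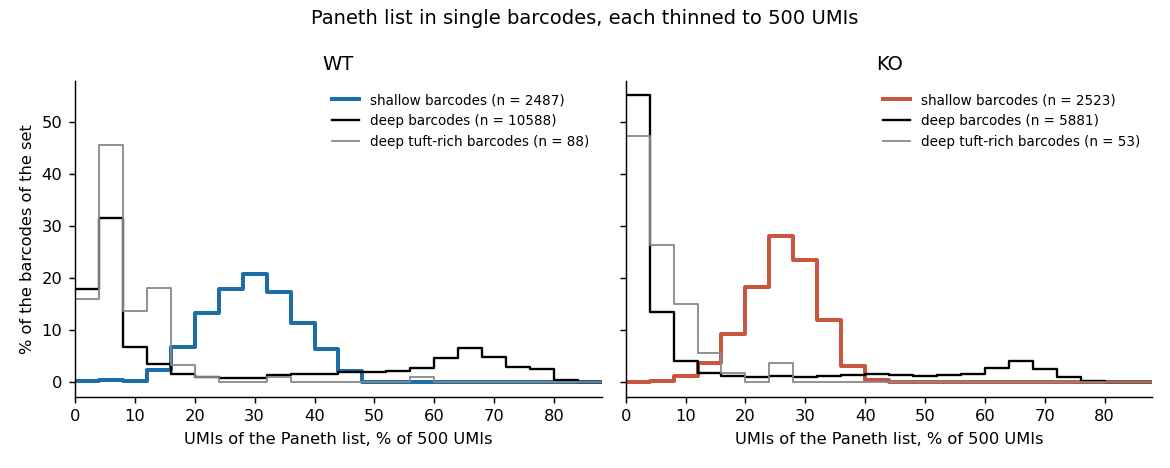
Share of the Paneth list in 500 UMIs of a barcode (x axis, percent) and the percentage of barcodes of the set (y axis), for shallow, deep and deep tuft-rich barcodes of WT and KO. Shallow barcodes form 1 peak with a median of 29.6% in WT and 26.4% in KO, whereas deep barcodes have a large peak under 10% and a wide group at 40% and above.

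Deep barcodes rich in tuft genes served as a background, since tuft cells, the chemosensory cells of the epithelium, should not make Paneth products. They were those with at least 5 UMIs and 0.2% of UMIs from the tuft list, 88 in WT and 53 in KO. They held 397.5 Paneth UMIs per barcode in WT and 353.0 in KO. The shallow barcodes held 277.4 and 206.8, and the WT barcodes under 200 genes 197.4. Median depths differed widely, with 4258.5 UMIs in WT tuft-rich and 931 in shallow WT barcodes, and as a share of UMIs Paneth products were at a median of 29.6% in shallow WT and 6.2% in tuft-rich WT barcodes. The means of tuft-rich barcodes were raised by a few, but the medians had the same order, 249 Paneth UMIs in shallow against 311 in tuft-rich barcodes of WT and 190 against 291 in KO. Counts and shares thus had opposite orders in WT, and whether the Paneth UMIs of shallow barcodes were background or expression was not tested. Whether the 8.85% of shallow WT barcodes with 40% or more held Paneth cells was not tested.

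The leading lineage was set beside tuft-rich barcodes in the same way. Paneth was the lineage with most UMIs in 97.9% of shallow WT and 99.3% of shallow KO barcodes thinned to 500 UMIs. It led in 96.6% of WT and 98.1% of KO tuft-rich barcodes as well, so that this share says nothing of cell identity. By medians over barcodes, goblet genes, the mucins and associated secreted proteins of mucus-producing cells, had 17 UMIs per shallow barcode in WT and 10 in KO, beside 21.5 and 19 in tuft-rich ones. Mature enterocyte genes had 3 and 10, beside 8 and 18. At the 90th percentile, goblet genes had 57 UMIs in shallow and 46.2 in tuft-rich barcodes of WT, and 17 and 49.8 in those of KO. The highest WT value was 464 in shallow and 2154 in tuft-rich barcodes.

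Tuft and enteroendocrine genes were concentrated in small sets of barcodes. The tuft list made up 0.0246% of shallow and 0.0040% of deep UMIs in WT, a log2 ratio of 2.61, with 5 of 5 counted genes at least 2-fold higher (median 2.65). Sh2d6 stood at 43.8 against 4.16 CPM in WT (3.40) and Dclk1, a kinase widely used as a tuft marker, at 31.7 against 5.03 CPM (2.66). In KO the list showed 0.58, but of the 2 genes counted 0 were above 0 and 1 was at least 2-fold lower, with a median of −0.73. Of the 590 tuft UMIs of WT shallow barcodes, 33 barcodes with 5 or more of them held 520. Of the 118 in KO, 4 barcodes held 61. Among deep barcodes, 88 in WT held 3217 of 5187 tuft UMIs and 53 in KO held 2391 of 4466. Without the barcodes rich in the list (at least 5 UMIs and 0.2% of UMIs) at both depths, the ratio was 0.95 in WT and 0.63 in KO. The floor of 5 UMIs is a larger share of a shallow than of a deep barcode, so this cut fell unevenly on them. The KO ratio was −2.09 against deep barcodes of 1500 to under 6000 UMIs. At 500 UMIs, 20 shallow WT barcodes (0.804%) and 2 KO barcodes (0.0793%) had 5 or more tuft UMIs, beside 0.340% and 0.255% of deep ones. A further 19 WT and 3 KO barcodes lay near that limit, with 2 to 4.

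Enteroendocrine genes, those of hormone-secreting cells, were at 0.141% of shallow and 0.0499% of deep UMIs in WT (log2 1.50), and 9 of 13 counted genes were at least 2-fold higher, with a median of 1.19. Cck (cholecystokinin) stood at 425 against 39.3 CPM (3.43), Chga (chromogranin A) at 122 against 49.9 CPM (1.29) and Chgb at 397 against 168 CPM (1.24). Sst (somatostatin) was lower, at 8.34 against 19.1 CPM (−1.19). In KO the list had a ratio of −0.22 and a median of −0.40, with Cck at 35.3 against 88.3 CPM (−1.32). The WT ratio turned to −1.13 against deep barcodes of 1500 to under 6000 UMIs, and as a mean of the shares of single barcodes to −0.15. Of 3382 enteroendocrine UMIs in shallow WT barcodes, 60 barcodes held 2628. In KO 8 barcodes held 319 of 848, and 1 of these barcodes alone held 221. Rich barcodes held 50671 of 64338 UMIs of the list in deep WT and 44576 of 55711 in deep KO barcodes. Without the rich barcodes at both depths the ratio was 1.59 in WT and 1.40 in KO. The cut fell unevenly on shallow and deep barcodes, as for the tuft list, so the changed sign in KO was not read further. At 500 UMIs, 53 shallow WT (2.13%) and 8 KO barcodes (0.317%) had 5 or more enteroendocrine UMIs, beside 1.74% and 1.48% of deep barcodes, and 53 and 22 had 2 to 4.

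Mature enterocyte genes, which serve absorption of lipids, sugars, peptides and bile acids, were at 0.671% of shallow and 0.452% of deep UMIs in WT (log2 0.57) and at 2.104% and 1.17% in KO (0.84). In WT 3 of 21 were at least 2-fold higher (median 0.65) and in KO 9 of 21 (median 0.88). Fabp6, the ileal bile acid carrier, stood at 2057 against 536 CPM in WT (1.94) and had 1.22 in KO, and Apoa1, an apolipoprotein of chylomicrons and high-density lipoprotein, had 0.91 and 1.77. Treh (trehalase) had 1.38 and 2.54, and Anpep, a brush-border aminopeptidase, 1.04 and 1.76. Fabp1 was lower in both, with −0.26 and −0.61. Against deep barcodes of 1500 to under 6000 UMIs the list turned to −1.46 in WT and −0.79 in KO.

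Goblet genes were at 3.20% against 2.66% of UMIs in WT (0.27) and 1.62% against 2.01% in KO (−0.32), with medians of 0.29 and −0.20. Within the list Muc2, the gel-forming mucin of the intestine, had 1.34 in WT and 0.18 in KO, Fcgbp 1.58 and 0.54, while Agr2, a chaperone of mucin folding, had −0.62 and −0.78. In WT the list also reversed, to −1.06, against deep barcodes of 1500 to under 6000 UMIs. Crypt-base columnar (stem) cell genes stood at −0.25 in WT and −0.28 in KO. Lgr5, the stem cell receptor for R-spondin, had 0.96 and 0.13, and Olfm4 −0.61 and −0.68. The pan-epithelial list, with 12 of 12 genes counted, was close to level, at −0.01 and −0.11.

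Genes of dividing cells were lower in shallow barcodes. Of 12 mitotic genes of transit-amplifying cells, 0 were above 0 in either matrix, with medians of −0.80 in WT and −0.34 in KO. Mki67 stood at 70.0 against 161 CPM in WT (−1.20) and had −0.20 in KO, and Cenpf, a kinetochore protein, had −1.05 and −0.85. The S phase list, mostly helicase subunits and nucleotide synthesis enzymes, was at −0.52 in WT and −0.29 in KO. At 500 UMIs, 94 shallow WT (3.78%) and 84 shallow KO barcodes (3.33%) had 2 to 4 mitotic UMIs and 0 and 1 had 5 or more. Of deep barcodes, 1337 (12.6%) and 483 (8.21%) had 2 to 4. Exactly 1 mitotic UMI was found in 16.2% of shallow and 14.3% of deep WT barcodes, and in 20.6% and 16.3% of those of KO. Against deep barcodes of 1500 to under 6000 UMIs the mitotic list of KO stood at 0.040.

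Cytosolic ribosomal protein mRNAs stood lower as a group. They took 6.03% of shallow and 9.83% of deep UMIs in WT (log2 −0.70) and 11.8% and 15.8% in KO (−0.43). None of the 81 counted genes was above 0 in either matrix, with medians of −0.69 and −0.40, and 1 was 2-fold lower in WT (Rpl29, −1.06) and 0 in KO, where 1.34% and 1.93% of all genes were. Nuclear-encoded respiratory chain genes followed, with 1 of 76 above 0 in WT (median −0.50) and 5 of 78 in KO (median −0.40). Heat shock genes stood at −0.48 and −0.32, and genes of folding and translocation in the endoplasmic reticulum at −0.21 and −0.39. Against deep barcodes of 1500 to under 6000 UMIs, ribosomal protein mRNAs of KO no longer differed in that direction, with a ratio of 0.024.

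Immediate early genes, which are induced within minutes of a stimulus or of tissue dissociation, were higher. They took 0.280% of shallow and 0.0919% of deep UMIs in WT (1.60), with 12 of 13 at least 2-fold higher (median 1.65), and 0.0983% and 0.0489% in KO (1.01), with 9 of 13 (median 1.21). Jun stood at 702 against 190 CPM in WT (1.89) and Fos at 349 against 112 CPM (1.64), with KO ratios of 1.72 and 1.61. Fosb had 2.12 and 1.31. In KO the sum stood at −0.064 against deep barcodes of 1500 to under 6000 UMIs. The p53 and apoptosis list was at 0.41 in WT and 0.00 in KO, and Wnt targets at 0.25 and −0.19.

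**Figure D4:**
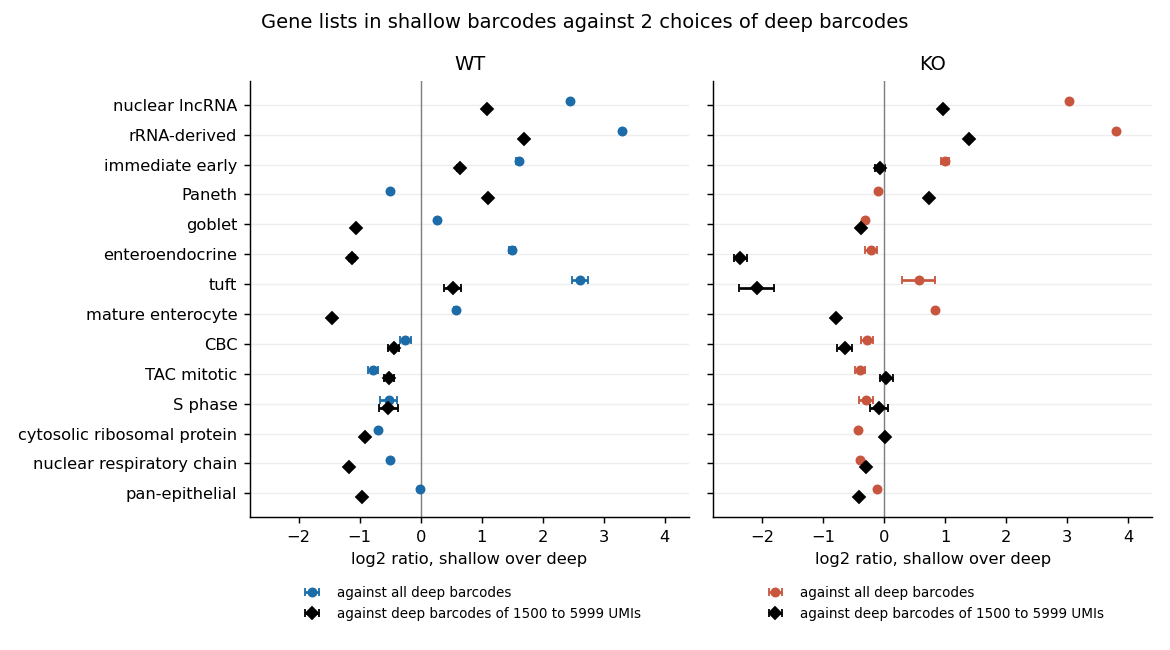
Log2 ratio of the summed share of 14 gene lists in shallow over deep barcodes of WT and KO, taken against all deep barcodes and against deep barcodes of 1500 to under 6000 UMIs; bars are 95% counting intervals, and the line at 0 marks equal shares. The rRNA-derived and nuclear lncRNA lists lie above 0 against both choices in both matrices (1.69 and 1.08 in WT and 1.40 and 0.97 in KO against barcodes of 1500 to under 6000 UMIs), whereas the Paneth list changes sides.

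Nonepithelial genes that could be counted were a minor source of UMIs. T and intraepithelial lymphocyte genes had 120 UMIs in WT shallow barcodes beside 139 in all deep ones, a log2 ratio of 5.53, and 85 beside 158 in KO (4.92). In WT 3 barcodes held 98 of the 120. They had 1193, 742 and 957 UMIs and 38, 15 and 45 lymphocyte UMIs, with Ccl5 in each (28, 2 and 9 UMIs) and Gzma in 2 of them (8 and 22). Epcam had 0 UMIs in all 3, and Paneth products took 19.5%, 27.6% and 19.6% of their UMIs. The Paneth share of these lymphocyte-rich barcodes was thus in the range of the other shallow barcodes. In KO the 85 UMIs were spread over 60 barcodes. B and plasma cell genes had 24 and 58 UMIs, of which Jchain, the joining chain of secreted IgA, had 15 and 50. Only 6 of the 9 genes of that list, and 13 of the 15 lymphocyte genes, had rows in the matrices. The immunoglobulin genes Igkc, Igha and Ighm were absent, so plasma cell RNA could not be fully counted. Myeloid genes had 31 and 29 UMIs, endothelial genes 8 and 6, stromal genes 1 and 1, and erythroid genes 0 and 0.

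Of 7604 genes counted in both matrices, 315 were at least 2-fold higher in shallow barcodes of each, which was 49.8% of the 632 higher in WT and 51.3% of the 614 higher in KO. A further 8 were lower in each. Over all genes counted in the single matrices, 10.6% in WT and 8.27% in KO were higher, and 1.34% and 1.93% lower. Only Cck and Rgs13, a tuft gene with 35 UMIs in WT and 4 in KO shallow barcodes, were 2-fold higher in WT and 2-fold lower in KO, and 0 genes showed the opposite.

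The 10 genes highest in shallow barcodes on the mean of both matrices were AY036118, Gm42418, Lars2, Myo15b, Malat1, Neat1, Gm26917, Plec, Ggt1 and Ahnak, among 847 genes that were abundant, had the same sign in both and an interval off 0 (188 higher, 659 lower). Myo15b (chr11:115858406-115892603), an unconventional myosin gene, stood at 364 against 71.0 CPM in WT (2.36) and 1174 against 83.0 CPM in KO (3.82). Plec, which links intermediate filaments to junctions, had 1.79 and 3.12. Ggt1, a glutathione-degrading enzyme of the brush border, had 1.86 and 2.94, and Ahnak, a very large scaffold protein, 1.89 and 2.79. The lowest 10 were the histone gene Hist1h2ap (−1.62 in WT, −1.43 in KO), Clps (colipase, −1.39 and −0.49), Sdc4, Rps2, Spcs1, Ppp1cc, Abracl, Rps4x, Rps9 and Ccnd1 (cyclin D1, −1.01 and −0.64).

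The difference between shallow and deep barcodes ran with transcript length, taken as the bases covered by a gene's exons in GENCODE M21. From the shortest to the longest quartile of counted genes the median log2 ratio went from −0.26 through 0.07 and 0.30 to 0.53 in WT, and from −0.31 through −0.13 and 0.03 to 0.16 in KO. The share of genes at least 2-fold higher went from 4.46% to 18.8% in WT and from 4.17% to 11.9% in KO. Ribosomal and respiratory genes are short, and Ahnak and Plec are long. The part of length in the list differences was not tested.

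Between the shallow barcodes of the 2 matrices, 638 of 6190 counted genes were at least 2-fold higher in KO (10.3%) and 816 at least 2-fold lower (13.2%), with a median log2 ratio of −0.00. The summed nuclear lncRNA list hardly differed, at −0.05, where deep barcodes showed −0.63. Malat1 made up most of the sum, with 39963 of 44287 UMIs in WT and 34289 of 36287 in KO. Of the 6 counted genes of the list, 4 were at least 2-fold lower in KO and 1 was above 0, with a median of −1.59. Malat1 stood at 0.01 (−0.01 to 0.04) in shallow and −0.64 in deep barcodes, and Neat1 at −0.23 and −0.95. Xist was lower in KO, with −1.23 in shallow and −0.40 in deep barcodes. Other settings moved the list to either side of 0, between −0.33 and 0.31.

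The rRNA-derived list was lower in KO by a wide margin, with a log2 ratio of −2.76 in shallow and −3.26 in deep barcodes. Gm42418 showed −2.67 and −3.25, AY036118 −4.62 and −4.38, and Lars2 −2.60 and −2.67. The difference was thus of like size at both depths and ran through the whole KO matrix. With 1 library per genotype, library and genotype cannot be told apart.

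Mature enterocyte genes were higher in KO shallow barcodes (log2 1.65, beside 1.38 in deep ones), and 11 of 21 were at least 2-fold higher, with a median of 1.06. Apoa1 went from 1072 to 7650 CPM (2.84; 1.98 in deep), Fabp6 from 2057 to 6346 CPM (1.63) and Fabp2, a fatty acid carrier, from 850 to 2892 CPM (1.77). Among the 10 genes highest in KO by rank, besides Apoa1, were Slc13a2, a citrate transporter (12.1 to 98.6 CPM, 3.03), Slc6a19, a neutral amino acid transporter (2.74), Tmigd1 (2.68), Slc34a2, a phosphate transporter (2.43), Apoc3 (2.25), Slc51b, a subunit of the basolateral bile acid exporter (2.17), Slc27a4, a fatty acid transporter (2.17), Upp1 (2.15) and Dpep1 (2.14). Ribosomal protein genes were also higher, with 34 of 81 at least 2-fold higher (median 0.96), as were respiratory genes, with 30 of 76 (median 0.94). In deep barcodes these lists showed 0.69 and 0.84.

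Enteroendocrine, tuft, goblet and immediate early genes were lower in KO shallow barcodes. Paneth genes, also secretory, differed less, with a ratio of −0.17 (−0.58 in deep). Of 19 counted Paneth genes 0 were at least 2-fold lower and 4 were above 0, with a median of −0.22. Enteroendocrine genes had a ratio of −1.76 (−0.04 in deep), with 6 of 12 at least 2-fold lower and a median of −1.25. Cck went from 425 to 35.3 CPM (−3.59, beside 1.17 in deep) and Chgb from 397 to 69.2 CPM (−2.52, beside −0.98). Tuft genes had −2.09 (−0.05 in deep), with 6 of 6 at least 2-fold lower and a median of −2.29. Goblet genes had −0.99 (−0.40 in deep), with 6 of 12 and a median of −1.05, among them Sytl2 (−3.10) and Muc2 (−2.25). For the tuft and enteroendocrine lists these values rested on the few barcodes described above, since without the rich barcodes of both matrices they were −0.082 and −0.31. Immediate early genes had −1.51 (−0.91 in deep), with 9 of 13 and a median of −1.25, and Fosb (−3.24), Btg2 (−2.56) and Egr1 (−2.54) stood among the 10 lowest, as did Mlph (−2.49).

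Length moved with this comparison too. The median log2 ratio of KO to WT in shallow barcodes went from 0.64 in the shortest through 0.19 and −0.17 to −0.65 in the longest quartile of genes, and in deep barcodes from 0.49 to −0.47. Its part in the higher ribosomal and respiratory lists and the lower immediate early list was not tested.

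The shallow barcodes did not share 1 level of nuclear RNA. At 500 UMIs nuclear lncRNA took a median of 1.0% in WT, with a 90th percentile of 4.6% and a highest value of 18.4%, and 1.2%, 4.2% and 18.0% in KO. Deep barcodes had medians of 0.4% and 0.2%, and the tuft-rich ones 1.8% and 1.0%. Deep tuft-rich barcodes of WT thus had a larger median nuclear share than the shallow ones. Nuclear lncRNA was found in 94.0% of shallow WT and 91.5% of shallow KO barcodes, and the 10 richest held 3.32% and 3.76% of it. The rRNA-derived share had a median of 7.6% in WT (10th to 90th percentile 4.32% to 13.6%) and 0.8% in KO (0.2% to 3.2%). A thinned shallow barcode had a median of 214 genes in WT and 251 in KO, beside 301 and 313 in deep barcodes.

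Across shallow barcodes the nuclear share ran with some lists and against others, given as Spearman coefficients over 2487 WT and 2523 KO barcodes that share a library and a common pool of UMIs. It rose with the immediate early share (0.45 in WT, 0.21 in KO) and fell with the ribosomal protein share (−0.38, −0.41). With the mitochondrial share it stood at −0.10 and −0.12, and with the rRNA-derived share at −0.05 in WT and 0.32 in KO. With mature enterocyte genes it was −0.02 in WT and 0.47 in KO.

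Clustering of the shallow barcodes of each matrix, without mitochondrial, nuclear lncRNA and rRNA-derived genes, gave 8 clusters in WT and 6 in KO, and the withheld lists differed widely among them. Clusters were called X-like from fixed markers and are otherwise given by their first genes. In WT, nuclear lncRNA was highest in the tuft-like (39 barcodes, 4.58%), Thbs1 and Gm26802 (544, 3.64%) and enteroendocrine-like clusters (62, 3.45%). It was 1.996% in the goblet-like cluster (303), 1.47% and 0.454% in the mature enterocyte-like clusters led by Fabp6 (577) and Reg1 (118), 0.696% in the mitotic-like cluster (225) and 0.583% in the Paneth-like cluster (619). Malat1 was at 52.7 UMIs per barcode in the tuft-like and 4.28 in the Paneth-like cluster. At a resolution of 1 the order changed, as an unnamed cluster led by Gm26802 (195 barcodes) had 6.39% and the tuft-like cluster again 4.58%.

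Levels of rRNA-derived RNA in WT clusters ranged only from 5.98% to 13.0%, the highest in the Fabp6 cluster. Paneth products ranged from 19.7% of UMIs in the tuft-like to 36.5% in the Paneth-like cluster, so every cluster, whatever its name, held at least about the share found in the tuft-like one. The Paneth-like name rests on that modest excess.

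In KO, nuclear lncRNA was highest in the mature enterocyte-like cluster (479 barcodes, 3.59%) and a cluster led by Pnmal2 and Dusp1 (70, 3.16%), followed by clusters led by Soat2 (927, 2.01%), the goblet-like cluster (69, 1.49%), and those led by Tmem176b (903, 0.636%) and Reg3a (75, 0.377%). The mature enterocyte-like barcodes made up 19.0% of the KO set. No Paneth-like, tuft-like, enteroendocrine-like or mitotic-like cluster appeared in KO at this resolution. At a resolution of 1 the mature enterocyte-like cluster held 11.1% (279 barcodes, 3.10% nuclear lncRNA), behind unnamed clusters led by Slc28a2 (155, 4.13%) and Pnmal2 (72, 3.23%), and a mitotic-like cluster of 155 barcodes appeared. Slc28a2 belongs to the villus-tip set that the selection rule used to leave barcodes out. Shallow barcodes below that cut still held 465 UMIs of the set in KO and 54 in WT, so this cluster is not independent of the rule. In both matrices the clusters poorest in nuclear lncRNA included one led by Reg1 or Reg3a together with Gsta1 and Fabp1.

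**Figure D5:**
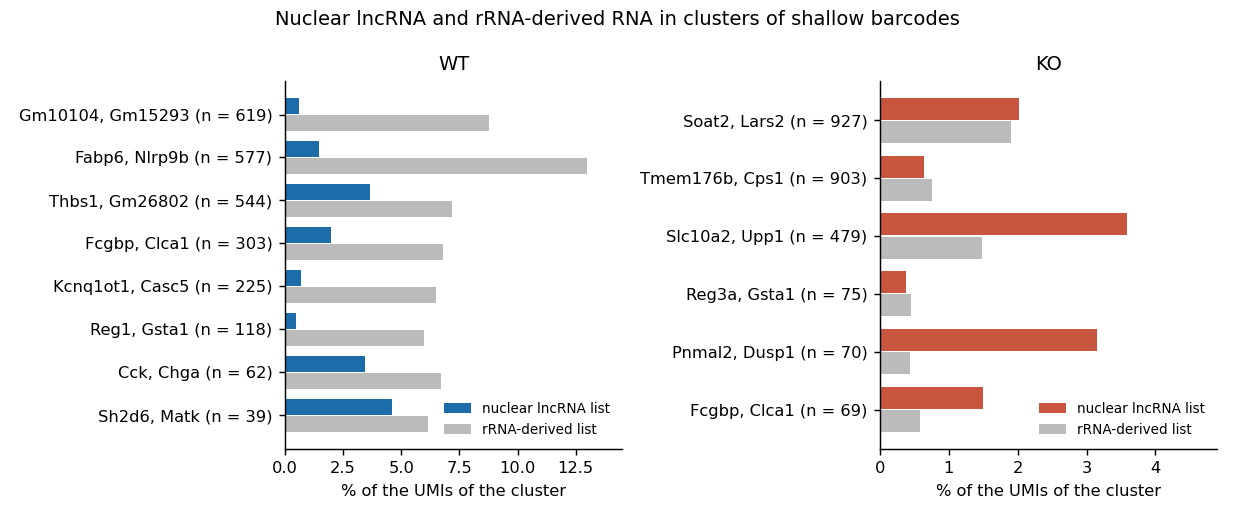
Share of UMIs (percent) from the nuclear lncRNA and rRNA-derived lists in each cluster of shallow barcodes of WT and KO, clusters labelled by their first 2 genes. Nuclear lncRNA ranges from 0.454% to 4.58% among the WT clusters and from 0.377% to 3.59% among the KO clusters, while rRNA-derived RNA is at least 5.98% in every WT cluster and at most 1.91% in every KO cluster.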

How the data were processed

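The authors deposited filtered gene-by-barcode matrices of raw UMI counts, 1 per genotype. The file header names Cell Ranger 4.0.0, whereas the submitters' processing notes name Cell Ranger 2.1.1 and mm10. The methods give droplet chips of either of 2 chemistries. Counts were read with scipy 1.17.1 and pandas 2.3.3 in Python 3.11.15. Barcodes with fewer than 200 genes or over 30% mitochondrial UMIs were dropped. Counts were summed over barcodes of a set and scaled to CPM. Log2 ratios carry exact conditional binomial intervals, and shares Clopper-Pearson intervals. Genes needed 50 UMIs in both sets and 10 expected in the smaller one. Genes ranked for shallow against deep had a mean of at least 50 CPM in each matrix, the same sign and intervals off 0. Those ranked for KO against WT had a mean of at least 50 CPM over the 2 matrices and an interval off 0. The 10 highest and lowest are named. Genes chosen after their values were seen are Ctnnb1 and Rgs13. The members and lists were chosen with earlier results of these data known. Barcodes were clustered in scanpy 1.11.5 with leidenalg 0.10.2 (2000 variable genes, 20 components, 15 neighbours, resolution 0.5). No doublet caller was run; deep barcodes without the tenth with most UMIs served as an alternative. Positions and exon lengths are from GENCODE M21 (GRCm38), which matched 27722 (99.0%) of 27998 gene identifiers. Scripts were tested on simulated data.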

Additional observations from a re-analysis of the deposited data

Results flagged for a closer look

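In 3 gene lists and 2 single genes the difference between shallow and deep barcodes went one way in WT and the other way in KO. Each genotype was 1 library, so that the difference between them was not tested. The goblet list had a log2 ratio of shallow to deep of 0.27 in WT and −0.32 in KO. The enteroendocrine list had 1.50 and −0.22, and the Wnt target list 0.25 and −0.19. Cck had 3.43 and −1.32, and Chgb 1.24 and −0.30. The opposite signs of the lists did not hold in every setting. Against deep barcodes of 1500 to under 6000 UMIs the WT goblet and enteroendocrine lists were at −1.06 and −1.13, and the WT Wnt target list was at −0.012 without the tenth of deep barcodes with most UMIs. Without barcodes rich in the list at both depths, a cut that fell unevenly on shallow and deep barcodes, the enteroendocrine list was at 1.59 in WT and 1.40 in KO.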

How the results depend on the processing

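Values are given for WT and then KO, as log2 ratios of shallow to deep barcodes unless stated; the cause of a change was not tested. Nuclear lncRNA and rRNA-derived RNA were higher in shallow barcodes in all 12 alternatives, with the smallest ratios against deep barcodes of 1500 to under 6000 UMIs. With a limit of 1000 UMIs the share of shallow barcodes was 11.1% and 24.0%, nuclear lncRNA 2.42 and 3.05, rRNA-derived RNA 3.34 and 3.98, and genes in WT 509 higher and 193 lower; KO against WT gave 0.011, −2.69 and 384 lower genes, and the KO tuft list −0.21. With 2000 UMIs the values were 24.0% and 31.9%, 2.42 and 2.96, 3.20 and 3.67, with 69 lower genes in WT and nuclear lncRNA in KO against WT at −0.072. With a mitochondrial limit of 15% they were 14.9% and 24.4%, 2.66 and 3.37, 3.36 and 4.04, and 0.016 and −2.67 for KO against WT, while in KO enteroendocrine, tuft and pan-epithelial lists had 0.15, −0.21 and 0.019. With at least 300 genes they were 13.2% and 22.5%, 2.68 and 3.15, 3.05 and 3.63, and −0.17 and −2.69. With villus-tip barcodes kept, the KO share was 32.1%, nuclear lncRNA 2.47 and 3.41, KO rRNA-derived RNA 3.78, and KO against WT 0.31 and −2.79; without them among deep barcodes, KO nuclear lncRNA was 3.06. Against deep barcodes of 1500 to under 6000 UMIs nuclear lncRNA was 1.08 and 0.97, rRNA-derived RNA 1.69 and 1.40, genes 155 higher and 1273 lower in WT and 44 and 308 in KO. There Paneth had 1.10 and 0.73, mature enterocyte −1.46 and −0.79, WT goblet −1.06 and enteroendocrine −1.13, and KO tuft −2.09, mitotic 0.040, immediate early −0.064 and ribosomal protein 0.024. Without the tenth of deep barcodes with most UMIs, nuclear lncRNA was 2.12 and 2.63, rRNA-derived RNA 2.98 and 3.45, genes 473 higher and 508 lower in WT and 416 and 690 in KO, WT Wnt targets −0.012 and KO Paneth 0.89. With mitochondrial, rRNA-derived and nuclear lncRNA genes out of the total, nuclear lncRNA was 2.72 and 3.17, rRNA-derived RNA 3.57 and 3.95, genes 1536 higher and 32 lower in WT and 73 lower in KO, KO against WT −0.18, −2.89 and 413 higher, WT stem cell genes 0.021, KO Paneth 0.052 and pan-epithelial 0.028. With genes above 1% out of the total, they were 2.47 and 3.18, 3.32 and 3.95, with 70 lower genes in KO, KO against WT −0.33, −3.04, 245 higher and 1306 lower and mitotic −0.069, KO Paneth 0.058 and pan-epithelial 0.034. As means of per-barcode shares, they were 1.62 and 2.15, 2.39 and 2.93, KO against WT −0.015 and −2.70, WT Paneth 0.17, goblet −0.28, enteroendocrine −0.15, mature enterocyte −0.32 and Wnt targets −0.12, and KO Paneth 0.74, tuft −0.80 and mature enterocyte −0.15. Requiring 10 UMIs per gene gave 1685 higher and 333 lower in WT, 1195 and 519 in KO, and 1022 and 1869 for KO against WT; requiring 200 gave 272 and 31, 180 and 23, and 312 and 148. In alternatives chosen after seeing the data, leaving out barcodes rich in the list (at least 5 UMIs and 0.2% of UMIs) among shallow and deep barcodes gave 1.59 and 1.40 for the enteroendocrine and 0.95 and 0.63 for the tuft list. The floor of 5 UMIs made that cut uneven between shallow and deep barcodes. No paired analysis was possible because each genotype was 1 pooled matrix without replicate numbers on its barcodes. For the same reason no replicate could be left out.

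Shallow barcodes held few UMIs, so a gene below about 10 expected UMIs could not be judged. The totals do not separate intact cells from nuclei, damaged cells or droplets with released RNA, and fewer cells of a kind cannot be told from less RNA per cell. Shares of a list depend on the other RNAs in the same set.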
